A study of Mus musculus with 14 samples.

Results

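Nppa and Nppb, which encode the precursors of the cardiac hormones ANP and BNP, were measured together with Acta1, Myl4 and Myl7, which encode sarcomere proteins typical of the fetal heart or the atria. The genes were taken by name, as every probe set annotated to 1 of them under its current symbol or an older synonym, and not by their signal. This gave 6 of the 12488 probe sets of the array, standing for 5 of the 8251 genes with a probe set of their own. Nppa (103593_at), Nppb (104184_at), Acta1 (100381_at) and Myl7 (100403_at) had 1 probe set each. Myl4 had 2, and the brighter, 100828_at, stands for the gene, with 160487_at given beside it.

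The series holds 14 MG-U74Av2 oligonucleotide arrays, each of total RNA from 1 transplanted mouse heart, and every recipient was a C57/BL6 mouse. Rejecting allografts were Balb/c hearts with no treatment named in the labels, taken at day 7 (n = 3). Tolerizing allografts were Balb/c hearts given with anti CD80/86 mAb, antibodies against costimulatory ligands of T cells, taken at day 70 (n = 3) and day 7 (n = 3). Isografts were C57/BL6 hearts with no treatment named, taken at day 70 (n = 2) and day 7 (n = 3). All allografts differ from all isografts in donor strain, and strain and alloimmune response cannot be told apart. The labels state no age, sex or method of grafting, and no untransplanted heart was analysed here. Nothing says that replicates were separate operations, so p-values measure only the spread between these arrays.

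The natriuretic peptides are made by heart muscle cells, are released when the chamber wall is stretched, and act through receptors that make cyclic GMP to relax vessels and promote salt loss. In the adult mouse Nppa transcripts are abundant in the atria and low in the ventricles, while load, hypoxia or injury raises both peptide genes in the ventricle. The same conditions raise Acta1, the skeletal muscle isoform of alpha-actin, which the fetal heart uses before Actc1, the cardiac isoform, predominates. Myl7, the atrial regulatory light chain, and Myl4, the atrial essential light chain, are made in the early heart tube and are later largely restricted to the atria.

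Nppa and Nppb lie next to each other on mouse chromosome 4 and Acta1 on chromosome 8. The 250 bases before the start of these 3 genes are shown because their signals moved together in the results that follow. They are from the RefSeq promoter table of build GRCm38.p6, on the strand of the gene, at chr4:148000472-148000721 for Nppa, chr4:147985650-147985899 for Nppb and chr8:123894776-123895025, minus strand, for Acta1. Capitals mark matches to 4 motifs searched on both strands: the MCAT element (CATTCC), the GATA site (letters GATAA), the TATA box (letters TATAAA), and the CArG box, the site of serum response factor.
Nppa: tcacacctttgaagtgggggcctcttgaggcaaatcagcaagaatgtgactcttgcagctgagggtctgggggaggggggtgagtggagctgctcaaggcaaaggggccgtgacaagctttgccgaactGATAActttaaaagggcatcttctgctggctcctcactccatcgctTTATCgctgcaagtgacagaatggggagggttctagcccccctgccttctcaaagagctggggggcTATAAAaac
Nppb: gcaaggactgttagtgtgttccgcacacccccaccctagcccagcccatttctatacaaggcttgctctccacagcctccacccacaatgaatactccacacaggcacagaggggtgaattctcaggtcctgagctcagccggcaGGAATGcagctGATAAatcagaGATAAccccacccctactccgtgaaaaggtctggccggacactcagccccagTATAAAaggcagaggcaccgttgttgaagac
Acta1: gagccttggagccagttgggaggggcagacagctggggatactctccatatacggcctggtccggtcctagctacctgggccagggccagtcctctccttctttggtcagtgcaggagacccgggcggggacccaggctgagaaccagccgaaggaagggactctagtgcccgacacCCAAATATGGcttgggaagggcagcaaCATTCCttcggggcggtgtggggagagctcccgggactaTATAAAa
Nppa held 2 GATA matches, ending 117 and 71 bases before the start, the second on the opposite strand, and 1 TATA match. Nppb held 2 GATA matches, ending 90 and 79 bases before the start, 1 MCAT match on the opposite strand and 1 TATA match. Acta1 held 1 CArG match, ending 64 bases before the start, 1 MCAT match and 1 TATA match, and it had no GATA match in this window. No match overlapped another. Among 32851 promoters of the table, the same windows held an MCAT match in 12.6%, a GATA match in 22.6%, a CArG match in 1.47% and a TATA match in 12.4%. A match describes letters in this window only.

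The arrays were on like scales: the trimmed mean of the signals was 99.67 to 99.98 and their median 38.2 to 45.65. Signals under 11, the lowest quartile of the table, were set to that floor before log2 was taken, and 71.9% to 78.7% of probe sets exceeded it. Markers of heart muscle were bright in the isografts and tolerizing allografts, with a summed signal over 13 genes of 24938 to 37450.1 in tolerizing allografts at day 7 and 34064.8 to 52965.7 in isografts at day 7, and lower in rejecting allografts, at 5746.2 to 24311. The beta-actin 3' to 5' ratio, which is higher where RNA is degraded, was 1.26 to 1.61 in rejecting allografts, 1.24 to 1.69 and 1.09 to 1.37 in tolerizing allografts at days 70 and 7, and 1.75 to 1.76 and 1.52 to 1.98 in isografts at days 70 and 7. The accessions fall into 2 runs, 5 arrays and then 9, with every group in both, and the labels do not say what the runs stand for. In bulk tissue, fewer cells of a type and less RNA per cell cannot be told apart.

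Acta1, Nppb and Nppa were among the bright probe sets and were above the floor on all 14 arrays. They were high and even among the 6 tolerizing allografts and uneven among the 5 isografts. Acta1 and Nppb were higher in every tolerizing allograft than in every isograft of either day, as were 3.09% of all probe sets. Of the 5 genes Acta1 alone passed the test over both days, where 7.78% of all probe sets were called. That comparison was chosen after the values had been seen. Acta1 was not called at either day alone, and its call over both days was lost under some alternatives, among them the beta-actin ratio as a covariate. Rejecting allografts lay below tolerizing ones of day 7 for all 3 genes and within the range of the isografts for both peptide genes, while most adult contractile genes fell. Myl7 and the second Myl4 probe set were near the floor on all arrays but 1, an isograft of day 7.

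**Figure D1:**
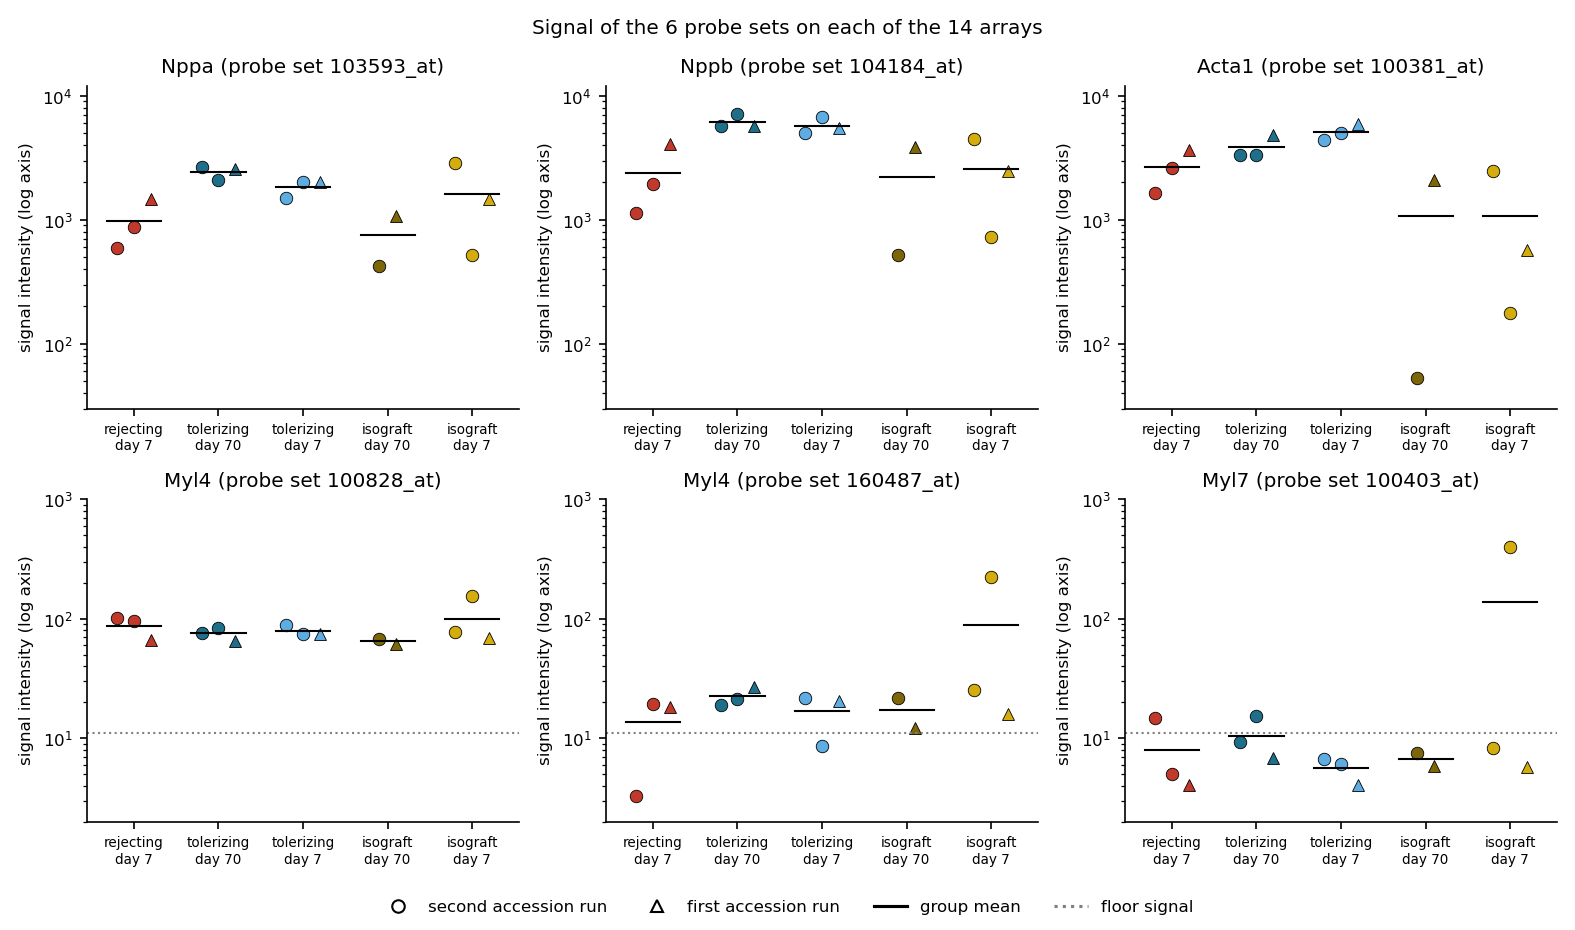
Signal of the 6 probe sets on each of the 14 arrays, on log axes, with groups along the horizontal axis in the order rejecting day 7, tolerizing day 70, tolerizing day 7, isograft day 70 and isograft day 7. Points are single hearts, marked by accession run, bars are group means, and the dotted line is the floor of 11 where the axis reaches it. Acta1 and Nppb have all 6 tolerizing hearts above all 5 isografts, and Myl7 has 1 isograft of day 7 at 397.5 with every other heart at 15.5 or less.

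Nppb, the BNP gene, gave a signal of 5698.7, 7104.5 and 5716.2 in tolerizing allografts of day 70 and 5025.6, 6694.0 and 5514.7 in tolerizing allografts of day 7. The isografts gave 524.3 and 3891.3 at day 70 and 4458.6, 721.3 and 2468.2 at day 7. The rejecting allografts gave 1133.1, 1955.8 and 4074.1. All 6 tolerizing hearts were thus above the other 8, whereas rejecting hearts and isografts covered the same range. The highest signal was 1.33 times the lowest in tolerizing allografts at day 7 and 1.25 times at day 70, against 6.18 times in isografts at day 7 and 7.42 times at day 70.

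Nppa, the ANP gene, gave 2667.8, 2098.5 and 2570.4 in tolerizing allografts of day 70 and 1488.9, 2034.5 and 2026.6 in tolerizing allografts of day 7. The isografts gave 425.2 and 1077.9 at day 70 and 2855.0, 523.4 and 1467.9 at day 7. The rejecting allografts gave 587.7, 869.7 and 1460.3. The isografts of day 7 covered the whole range of the tolerizing hearts, with replicate 1 above all of them and replicate 2 below. At day 70 the 3 tolerizing hearts were above both isografts.

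Acta1 gave 3354.7, 3328.8 and 4810.9 in tolerizing allografts of day 70 and 4411.1, 5052.4 and 5934.9 in tolerizing allografts of day 7. The isografts gave 52.8 and 2097.1 at day 70 and 2478.4, 177.4 and 574.9 at day 7. The rejecting allografts gave 1645.4, 2595.4 and 3686.9. Every tolerizing heart was above every isograft, and the rejecting hearts lay between, overlapping both. Acta1 had the widest spread of the 5 genes among the isografts of day 70, where the higher heart had 39.7 times the signal of the lower, against 1.45 times between the highest and lowest tolerizing hearts of that day.

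The order of the group means was not the same for the 3 genes. Acta1 averaged 5133 ± 765 in tolerizing allografts at day 7 and 3831 ± 848 at day 70, then 2643 ± 1022 in rejecting allografts, 1077 ± 1230 in isografts at day 7 and 1075 ± 1446 at day 70 (SD, n = 3, and n = 2 for isografts at day 70). Nppb averaged 6173 ± 807 and 5745 ± 858 in tolerizing allografts at days 70 and 7, and 2549 ± 1870, 2388 ± 1517 and 2208 ± 2381 in isografts at day 7, rejecting allografts and isografts at day 70. Nppa averaged 2446 ± 304 and 1850 ± 313 in tolerizing allografts at days 70 and 7, 1615 ± 1173 in isografts at day 7, 973 ± 445 in rejecting allografts and 752 ± 462 in isografts at day 70. Arrays of neighbouring groups in these orders overlapped, except for Nppa between tolerizing hearts of day 70 and day 7 and Nppb between tolerizing hearts of day 7 and isografts of day 7. Neither of these passed the test across all probe sets.

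The comparisons that follow are log2 differences of the first group named minus the second, from 1 limma fit over all 14 arrays, with Benjamini-Hochberg adjusted p over the 10395 probe sets tested and a threshold of 0.05. All 6 probe sets were tested. Myl7 passed the filter of 3 arrays above the floor only through 1 isograft of day 7, 1 rejecting allograft and 1 tolerizing allograft of day 70. In the 3 comparisons at day 7, the comparison at day 70, the comparisons over time and the interaction, limma called 0 of the 5 genes. At an unadjusted p under 0.05 there were 1 (Acta1) in tolerizing allografts against isografts at day 7, 3 (Nppa, Nppb and Acta1) in the same comparison at day 70, and 0 in the others. Of all probe sets, 13% had such a p at day 7 and 15.4% at day 70.

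In tolerizing allografts against isografts at day 7, which asks what the treated allograft expresses beyond an isograft at the same age of the graft, Acta1 and Nppb arrays did not overlap between the groups. The difference was 3.01 for Acta1 (SE 1.06, 8.06-fold, adjusted p = 0.220) and 1.52 for Nppb (SE 0.71, 2.86-fold, adjusted p = 0.396). Of all probe sets, 1.69% were called in this comparison, and 9.15% had every tolerizing array above every isograft. Acta1 passed the threshold, with the same difference, without isograft replicate 1 or 2 of day 70 (adjusted p = 0.0482 and 0.0466), which enter only through the spread that all groups share. Nppa differed by 0.49 (SE 0.52, adjusted p = 0.797), with a 95% interval of -0.62 to 1.61. Isograft replicates 1 and 2 of day 7 set these sizes: without replicate 1 Nppb differed by 2.10 and Nppa by 1.06, and without replicate 2 Nppb differed by 0.78 and Nppa by -0.16, with the sign turned.

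At day 70 the arrays of all 3 genes were higher in every tolerizing allograft than in both isografts, and none passed the test. The difference was 3.50 for Acta1 (SE 1.19, 11.3-fold, adjusted p = 0.149), 2.10 for Nppb (SE 0.80, 4.30-fold, adjusted p = 0.210) and 1.85 for Nppa (SE 0.58, 3.59-fold, adjusted p = 0.116). Here 3.2% of all probe sets were called and 11.8% had every tolerizing array above both isografts. With 2 isografts, the size of the difference rested on both: without replicate 2 Acta1 differed by 6.16 (adjusted p = 0.00456), Nppb by 3.55 and Nppa by 2.52, and without replicate 1 they differed by 0.85, 0.66 and 1.17. Nppb passed the threshold without replicate 2 (adjusted p = 0.0353), and Nppa without isograft replicate 2 of day 7, which enters only through the shared spread (1.85, adjusted p = 0.0445).

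Because the tolerizing hearts were alike at both days, the 6 tolerizing allografts were also set against the 5 isografts, each day weighted equally. This comparison was chosen after the values had been seen. Acta1 rose by 3.26 in tolerizing allografts (SE 0.80, 9.56-fold, 95% interval 1.54 to 4.97, adjusted p = 0.0240). Nppb differed by 1.81 (SE 0.54, 3.51-fold, adjusted p = 0.056) and Nppa by 1.17 (SE 0.39, 2.25-fold, adjusted p = 0.0882) and neither passed the threshold. With the accession run as a block Nppb passed it (1.88, adjusted p = 0.0358). In an exact permutation test of each gene within days, two-sided, p was 0.005 for Acta1 and Nppb, the smallest that 200 permutations can give, and 0.04 for Nppa. So 1 of 5 genes was called, where 7.78% of all probe sets were called and 4.35% were called higher, and 2 of 5 had all tolerizing hearts above all isografts, as 3.09% of all probe sets did.

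The Acta1 call rested on few arrays. It was lost without isograft replicate 1 of day 70 (1.93, adjusted p = 0.117), without isograft replicate 2 (2.80, adjusted p = 0.0558) or 3 (3.22, adjusted p = 0.0512) of day 7, and without tolerizing replicate 3 of day 7 (3.20, adjusted p = 0.0530), and without isograft replicate 2 of day 70 the difference was 4.58 (adjusted p = 0.000614). Nppb passed the threshold without isograft replicate 1 of day 7 (2.10, adjusted p = 0.0382), isograft replicate 2 of day 70 (2.53, adjusted p = 0.00852) or rejecting replicate 3, which enters only through the shared estimate of the spread (1.81, adjusted p = 0.0434). Nppa passed it without the same 2 isografts (1.45, adjusted p = 0.0278, and 1.51, adjusted p = 0.0498). The beta-actin 3' to 5' ratio moved with Acta1, since the 2 lowest Acta1 signals, in isograft replicate 1 of day 70 and replicate 2 of day 7, came with ratios of 1.76 and 1.98, the 2 highest. Isograft replicate 2 of day 70, with a ratio of 1.75, had an Acta1 signal of 2097.1. With that ratio as a covariate Acta1 differed by 2.22 (adjusted p = 0.332). Within accession runs the Acta1 difference at day 7 was 3.37 in the earlier run and 2.83 in the later one, and at day 70 1.20 and 5.98. The earlier run has 1 array a group, and the 5.98 rests on 1 isograft. Its sign was fixed in advance, because every tolerizing heart was above every isograft. Markers of leukocytes were higher in tolerizing allografts too. Their summed signal over 21 genes was 4765.8 to 6732.5 and 4503.9 to 6373.7 in tolerizing allografts at days 70 and 7. In isografts it was 1517.8 to 2676.0 and 3395.2 to 3659.7 at days 70 and 7. Their part in the result was not tested.

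**Figure D2:**
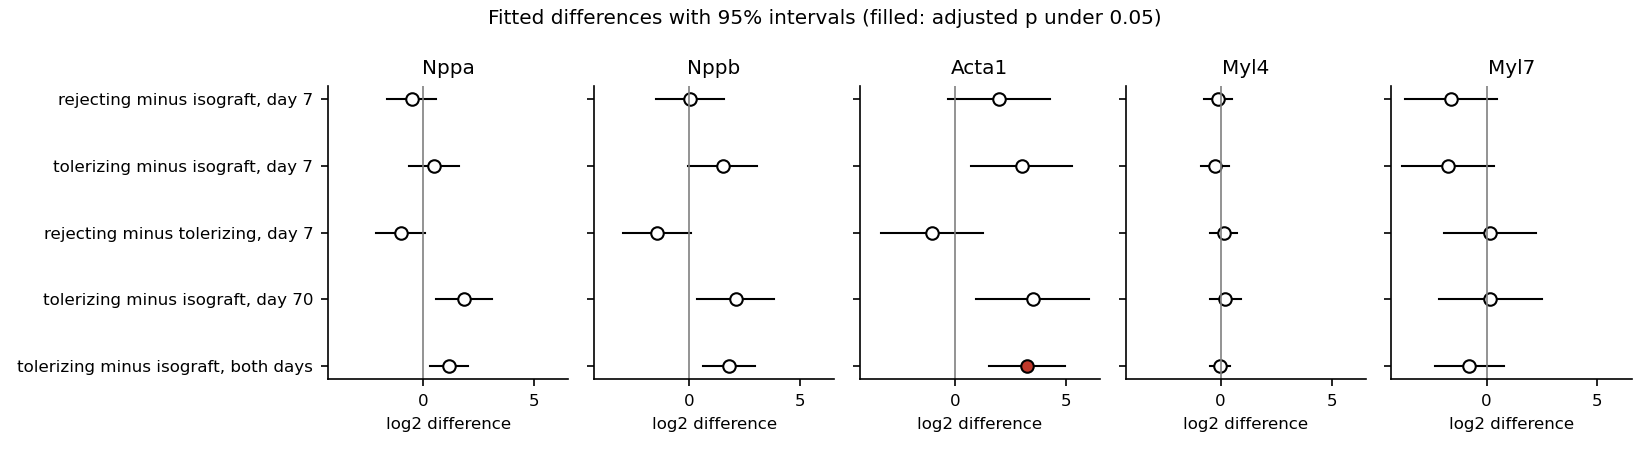
Log2 differences of the 5 genes between groups, with 95% intervals from the limma fit, 1 panel per gene and 1 line per comparison, and a filled point where the adjusted p is under 0.05. The only filled point is Acta1 over both days. The intervals of Acta1 and of both peptide genes lie above 0 for tolerizing allografts against isografts over both days, and the wide intervals of Myl7 reflect 1 isograft array.

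Acta1 is also the alpha-actin of skeletal muscle, so markers of that tissue were read on the same arrays. Of 20 such markers 19 were on the array and 13 were tested, with 0 called by limma in any comparison of a pair of groups and 0 or 1 at an unadjusted p under 0.05. Over both days Casq1, the calsequestrin of fast muscle fibres, was higher in tolerizing allografts than in isografts, by 1.28 (SE 0.34, adjusted p = 0.0328), and the other 12 were not called. In that comparison 4.35% of all probe sets were called higher. The summed signal of the 13 was 881.3 to 960.0 in rejecting allografts, 1033.8 to 1434.4 and 890.3 to 1349.4 in tolerizing allografts at days 70 and 7, and 896.7 to 1103.7 and 738.1 to 1190.8 in isografts at days 70 and 7. Of the 13, 5 never exceeded a signal of 50 on any array (Actn3, Tnnt3, Atp2a1, Cacna1s and Ryr1), and 8 did, among them Casq1, with 167.5 to 576.6 in tolerizing hearts and 79.6 to 194.8 in isografts. The part of skeletal muscle in the Acta1 signal was not tested.

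In rejecting allografts against isografts at day 7, 0 of the 5 genes were called, where 17.7% of all probe sets were, 8.54% higher and 9.18% lower. Acta1 differed by 1.99 (SE 1.06, adjusted p = 0.240), Nppb by 0.06 (SE 0.71, adjusted p = 0.977) and Nppa by -0.52 (SE 0.52, adjusted p = 0.569). The 95% interval was wide for each, at -0.30 to 4.28, -1.48 to 1.60 and -1.63 to 0.60. With 1 array left out at a time, the differences were 1.07 to 2.97 for Acta1, -0.67 to 0.64 for Nppb and -1.17 to 0.05 for Nppa, with the lower end without isograft replicate 2 and the upper end without replicate 1.

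On the same arrays most adult ventricular contractile and calcium genes fell. Of 26 tested, 22 were lower in rejecting allografts than in isografts and 0 higher, with a median of -1.83 against 0.04 over all probe sets. Markers of other cells moved in the same comparison: 16 of 21 leukocyte markers were higher and 0 lower, and 5 of 10 endothelial and 5 of 10 fibroblast markers were lower and 0 higher, where 8.54% of all probe sets were higher and 9.18% lower. Their summed signal was 1117.9 to 1284.9 in rejecting allografts and 1858.2 to 2700.8 in isografts for the endothelial markers, and 3542.6 to 12945.4 in rejecting allografts and 11890 to 18339.3 in isografts for the fibroblast markers. Their part in the result was not tested. Myh6, the adult mouse myosin heavy chain, gave 108.7, 76.3 and 2212.3 in rejecting allografts and 4297.2, 4935.9 and 3487.4 in isografts, a difference of -3.99 (SE 0.88, adjusted p = 0.00672). Myl2 and Myl3, the ventricular light chains, fell by 2.31 and 3.58 on the log2 scale (adjusted p = 0.00549 and 0.00453). Replicate 3 of the rejecting hearts kept far more of these transcripts than the other 2. It was also the highest of the 3 for Acta1, Nppb and Nppa. Replicate 3 was the only rejecting heart in the first accession run, so heart and run cannot be told apart there. In tolerizing allografts against isografts 1 of the 26 was called at either day and over both days, Hrc, a calcium-binding protein of the sarcoplasmic reticulum. Of all probe sets, 1.69% were called at day 7, 3.2% at day 70 and 7.78% over both days. Hrc fell by 1.55 on the log2 scale at day 7 (adjusted p = 0.00338) and by 1.52 at day 70 (adjusted p = 0.00561). Its signals were 203.1 to 528.8 in the 6 tolerizing hearts and 600.5 to 1263.1 in the 5 isografts.

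Each gene was also set against the mean log2 signal of those 26 genes on its own array, a scale chosen after the values had been seen. That mean lay at -2.77, -2.43 and -0.82 in the rejecting hearts relative to the mean of the isografts of day 7. On this scale Acta1 was higher in rejecting allografts than in isografts by 4.0 (16-fold), Nppb by 2.08 (4.22-fold) and Nppa by 1.5 (2.82-fold). The arrays did not overlap for any of the 3, and the exact permutation p was 0.1 for each, the smallest that 3 against 3 hearts can give. However, 70.9% of all probe sets had every rejecting array above every isograft on this scale, so the separation is near the background. The peptide genes and Acta1 were thus not among the genes called lower with the adult ventricular list, as most of the array was not. For rejecting against tolerizing allografts the same measure was 0.51 for Acta1, 0.08 for Nppb and 0.52 for Nppa, with exact permutation p of 0.3, 0.8 and 0.3 and overlapping arrays.

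**Figure D3:**
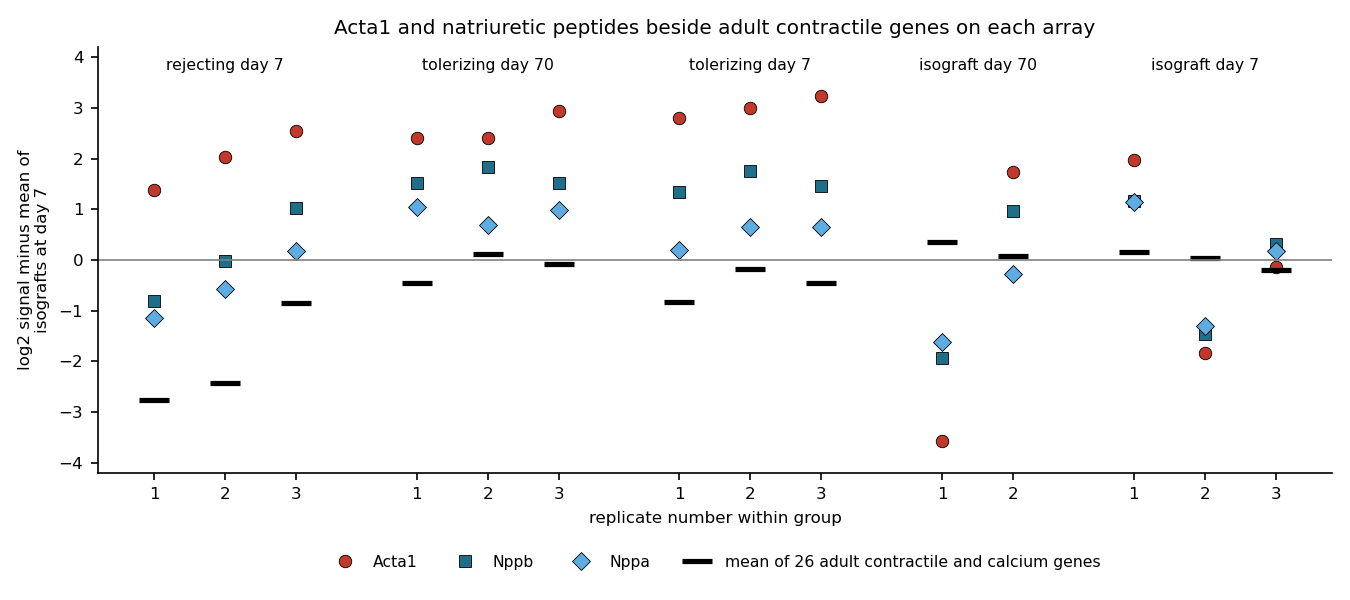
Log2 signal of Acta1, Nppb and Nppa on each array beside the mean log2 signal of the 26 adult ventricular genes, relative to the mean of the isografts of day 7. In rejecting hearts the list lies below 0 on all 3 arrays while Acta1 lies above it, and in tolerizing hearts all 3 genes lie above the list.

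In rejecting against tolerizing allografts at day 7, a comparison of hearts of 1 donor strain that differ in the antibody, all 3 rejecting hearts were below all 3 tolerizing hearts for Acta1, Nppb and Nppa. The difference was -1.02 for Acta1 (SE 1.06, adjusted p = 0.729), -1.45 for Nppb (SE 0.71, adjusted p = 0.367) and -1.01 for Nppa (SE 0.52, adjusted p = 0.390). None passed the test, where 1.41% of all probe sets did, and 7.42% had every rejecting array below every tolerizing one. Of the adult ventricular genes, 3 of 26 were lower (Mb, Ckm and Casq2), with a median of -1.48. Leukocyte markers summed to 9072.2 to 9983.4 in rejecting and 4503.9 to 6373.7 in tolerizing hearts, and their part in the lower raw signals was not tested.

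Over time the 3 genes did not pass the test in either kind of graft. In tolerizing allografts, day 70 against day 7, Nppa differed by 0.41 (SE 0.52), Nppb by 0.11 (SE 0.71) and Acta1 by -0.43 (SE 1.06), with adjusted p of 0.994 for Nppa and 1 for the others, where 0.0385% of all probe sets were called. Nppa was higher in all 3 hearts of day 70 than in all 3 of day 7, as were 4.68% of all probe sets. In isografts, day 70 against day 7, the differences were -0.94 for Nppa, -0.48 for Nppb and -0.93 for Acta1, with 0% of probe sets called by limma and 5.38% at an unadjusted p under 0.05. The interaction, the difference between tolerizing allografts and isografts at day 70 minus that at day 7, was 1.35 for Nppa (SE 0.78), 0.59 for Nppb (SE 1.07) and 0.49 for Acta1 (SE 1.59), each with an adjusted p of 1, where 0% of probe sets were called and 3.93% had an unadjusted p under 0.05. The 95% interval of the change over time in isografts was -3.48 to 1.63 for Acta1 and -2.20 to 1.24 for Nppb, so even large changes were not detectable there.

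The 3 bright genes varied together among hearts of 1 group. With group means taken out, Pearson's r over 14 arrays was 0.93 for Nppa and Nppb (Spearman's rho 0.93, exact permutation p = 0.00694) and 0.86 for Nppa and Acta1 (rho 0.87, exact permutation p = 0.00656), both with p = 0.0347 after Benjamini-Hochberg adjustment over 10 pairs. For Nppb and Acta1 r was 0.93 (rho 0.84, exact permutation p = 0.0212, adjusted p = 0.0530). Next, the 2 arrays farthest from the median of the first gene of a pair were left out. These were isograft replicates 1 and 2 of day 7 for Nppa, and isograft replicate 2 of each day for Nppb. Then r was 0.92, 0.82 and 0.73, with adjusted p of 0.227, 0.116 and 0.227, so no pair passed. In the second run alone, with 9 arrays, r was 0.97, 0.98 and 0.98. There the isograft of day 70 is alone in its group and the other groups have 2 arrays each. The 16 arrangements gave an exact permutation p of 0.25, 0.125 and 0.25. Replicate 2 of the isografts of day 7 was lowest of its group for all 3 genes and replicate 1 highest. At day 70 replicate 1 was the lower one for all 3, and the 2 isografts of that day are in different accession runs.

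**Figure D4:**
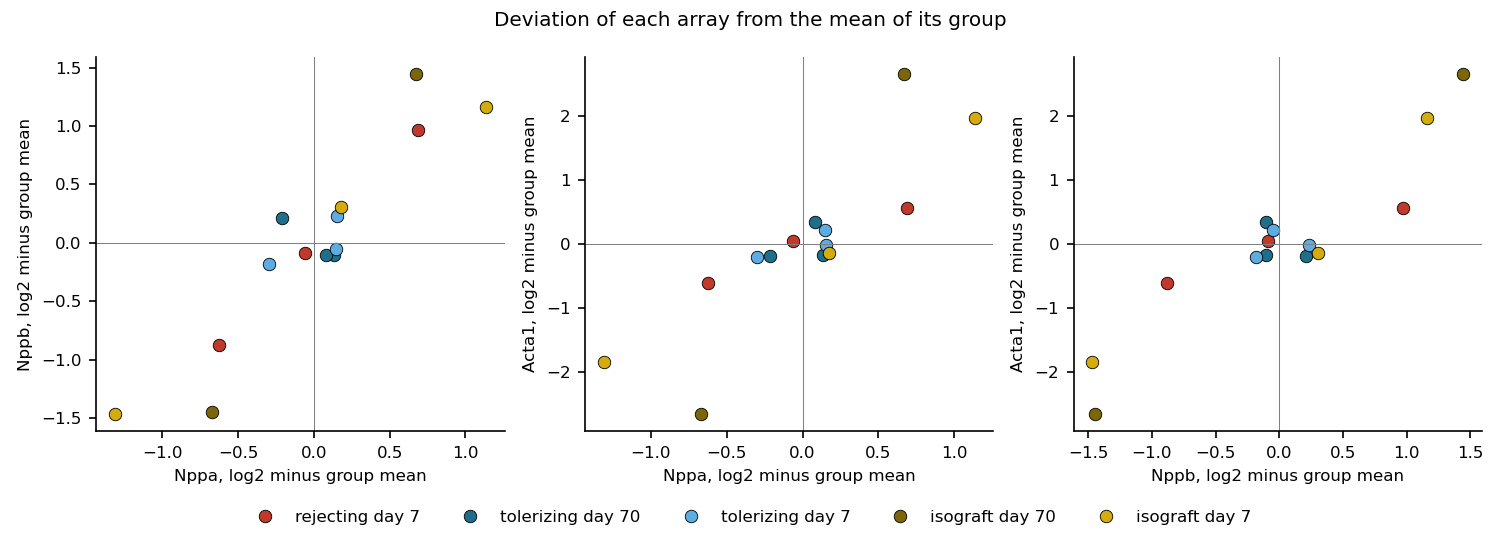
Log2 signal minus the group mean on each array, plotted for pairs of the 3 bright genes, with the 14 arrays as points marked by group. The isografts span the widest range, and the tolerizing hearts lie close to 0 on both axes.

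Over the 14 arrays, and among 5512 other genes above the floor on every array, the gene whose pattern was most like Nppa was Cx3cl1, a chemokine gene (r = 0.946), followed by Nppb (r = 0.929). The order for Nppb began with Nppa, Ten1 and Rcan1 (r = 0.929, 0.897 and 0.893), and that for Acta1 with Jpt1, Msn and Tubb2a (r = 0.914, 0.903 and 0.902). Rcan1, a calcineurin inhibitor gene that calcineurin signalling induces, thus stood close to both peptide genes (r = 0.833 with Nppa). Ccn2, the gene of connective tissue growth factor, was among the 5 most like both Nppb and Acta1, at 0.892 for each. With group means taken out, neither Rcan1 nor Ccn2 was among the 5 most like Nppa, Nppb or Acta1. There the order began with Nppb and Commd4 for Nppa, Nppa and Acta1 for Nppb, and Rpl6 and Msn for Acta1. These r describe the arrays, which share groups, donor strain and scaling.

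Within groups Myl4 and Myl7 ran opposite to the 3 bright genes on these arrays. With group means taken out, Pearson's r over 14 arrays was -0.83 for Nppa and Myl4 (Spearman's rho -0.85), -0.70 for Nppb and Myl4 (rho -0.70), -0.54 for Acta1 and Myl4 (rho -0.70) and -0.75 for Nppa and Myl7 (rho -0.65). By exact permutation, adjusted over the same 10 pairs, none of these r passed the threshold (adjusted p = 0.0530, 0.0546, 0.102 and 0.0546), while each of these rho did (adjusted p = 0.0231, 0.0354, 0.0241 and 0.0463). Without the 2 arrays farthest from the median of the first gene of each pair, r was -0.77, -0.58, -0.77 and -0.49, and none of the r or rho passed. For Acta1 these arrays were both isografts of day 70, so replicate 2 of the isografts of day 7 stayed in that pair. Nppb and Acta1 with Myl7 had r of -0.59 and -0.49, and neither r nor rho passed. Myl7 had 397.5 in replicate 2 of the isografts of day 7, and every other heart was between 4.1 and 15.5, near or under the floor. The Myl4 probe set 160487_at had 225.7 in the same heart, with 26.9 as the highest elsewhere. The brighter Myl4 probe set, 100828_at, had 153.8 there and 61.7 to 100.6 in the other 13 hearts. Of 10395 probe sets tested, these 2 were the only ones at least 4-fold above every other array in that heart, at 25.6-fold for Myl7 and 8.39-fold for Myl4. On the other 13 arrays 0 to 19 probe sets stood out in this way. The same heart had among the lowest signals of Nppa, Nppb and Acta1.

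The genes of atrial muscle did not all go with Myl7 in that heart. Sln, the sarcolipin gene, an inhibitor of the calcium pump that is abundant in atria, gave 21.9 there, within the 9.7 to 39.7 of all arrays. Nppa, although an atrial gene, was 523.4 there, the lowest of the isografts of day 7. Whether the tissue sampled from that heart held atrium was not tested. In group comparisons 0 of the tests of Myl7 or Myl4 passed, with Myl7 at -1.59 in rejecting allografts against isografts of day 7 (SE 0.96, adjusted p = 0.309) and at -1.73 in tolerizing against isografts of day 7 (SE 0.96, adjusted p = 0.500). Without that heart the first was 0.14, and for the second every remaining array of both groups was at the floor, so both rest on it.

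Myl4 by its brighter probe set was the steadiest of the 5 genes. It averaged 87.7 ± 18.3 in rejecting allografts, 75.3 ± 9.3 and 79.0 ± 8.0 in tolerizing allografts at days 70 and 7, and 64.9 ± 4.5 and 100 ± 46.7 in isografts at days 70 and 7. Its difference was -0.12 for rejecting allografts against isografts of day 7 (95% interval -0.73 to 0.50) and -0.02 for tolerizing allografts against isografts over both days (-0.48 to 0.44). The second interval does not reach the 3.26 of Acta1 in the same comparison. In the first comparison Acta1 differed by 1.99, with an interval of -0.30 to 4.28 that overlaps that of Myl4. In isografts Myl4 was lower in both hearts of day 70 than in the 3 of day 7 (-0.53, SE 0.32, adjusted p = 0.969), as were 9.17% of all probe sets.

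Beyond the 5 genes, 30 other fetal or atrial-type cardiac genes were tested, and they did not rise as a group. In rejecting allografts against isografts at day 7, 1 was higher and 5 were lower, where 8.54% and 9.18% of all probe sets were, with a median of 0.02 against 0.04 over all probe sets. The one higher was Slc2a1, the glucose transporter GLUT1 that predominates in the fetal heart, with 154.3, 201.1 and 144.7 in rejecting allografts and 9.8, 21.9 and 24.1 in isografts (3.20, SE 0.60, 9.18-fold, adjusted p = 0.00276). Myh7, the fetal and stress-induced myosin heavy chain of the mouse ventricle, fell instead by its brighter probe set (-3.56, SE 0.82, adjusted p = 0.00829). It gave 148.0, 155.2 and 2622.3 in rejecting allografts, against 7644.4, 3097.9 and 4207.9 in isografts. Actc1, Tnnt2, Fhl2 and Kcna5 were the other 4 lower, with differences of -1.60, -1.54, -2.60 and -1.85, and Actc1 and Tnnt2 stand in the adult list too. The probe sets of Myh7 and Actc1 carry the suffix of probe families shared with related genes, so transcripts of close homologues may add to their signal.

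In tolerizing allografts against isografts limma called 0 of these 30 at day 7 and 0 at day 70. At an unadjusted p under 0.05 there were 5 and 1, where 13% and 15.4% of all probe sets had one. Over both days 1 was lower, Nr2f2, a transcription factor of atrial identity (-1.01, SE 0.27, adjusted p = 0.0363). Of all probe sets, 7.78% were called in that comparison in either direction, and 4.35% were called higher. Myh7 differed by -0.59 at day 7 and 0.14 at day 70, and Ankrd1, a stress-induced muscle gene, by -0.02 and 0.39, with adjusted p of 0.865 or more for Myh7 and 0.634 or more for Ankrd1. The higher Acta1 of tolerizing hearts was thus not accompanied by a called rise of Ankrd1 or of the brighter Myh7 probe set.

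Outside the hormones themselves, 9 genes of the natriuretic system were tested. In rejecting allografts against isografts at day 7, 1 of them was lower, a share near the 9.18% of all probe sets, and in the other comparisons limma called 0, with 0 or 1 at an unadjusted p under 0.05. Corin, the protease that cuts the ANP precursor into the active hormone, gave 44.5, 45.0 and 72.6 in rejecting allografts and 166.5, 238.8 and 178.4 in isografts, with no overlap (-1.87, SE 0.34, 3.65-fold, adjusted p = 0.00216). In tolerizing allografts against isografts Corin differed by -1.21 at day 7 (adjusted p = 0.107) and by -0.85 over both days (adjusted p = 0.0555). Furin, a protease that can cut the BNP precursor, differed by 0.33 in rejecting allografts (adjusted p = 0.209). Npr1, the receptor of ANP and BNP, was between 0.5 and 10.1 on all arrays, below the floor, and was not tested. Npr3, the clearance receptor, lay between 11.1 and 47.4 by its brightest probe set and was not called.

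Among 23 genes of transcription factors and cofactors tested, most with known roles at cardiac promoters, 1 was higher and 4 were lower in rejecting allografts against isografts at day 7, where 8.54% and 9.18% of all probe sets were. Mrtfa, a cofactor of serum response factor, which binds the CArG box of the kind printed for Acta1, was higher by 1.34 (SE 0.30, adjusted p = 0.00777). Mef2c, Hopx, Gata6 and Irx3 were lower, with differences of -2.46, -2.07, -0.98 and -1.10. Hopx, a homeodomain protein that restrains serum response factor, was also lower in tolerizing allografts, with differences of -2.07 at day 7 and -2.51 at day 70 (adjusted p = 0.0243 and 0.00975). Mef2c, a factor of muscle genes, was lower in tolerizing allografts over both days, with a difference of -1.20 (SE 0.29, adjusted p = 0.0215). The signals of Hopx were 131.3 to 413.3 in the 6 tolerizing hearts and 637.9 to 1603.2 in the 5 isografts. Hopx and Acta1 were both separated between these groups, in opposite directions, and a link between them was not tested. Gata4, a factor of GATA sites such as those printed for Nppa and Nppb, differed by -0.22 in rejecting allografts (adjusted p = 0.525) and by -0.06 in tolerizing allografts over both days (adjusted p = 0.867).

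Of 30 genes of load and hypertrophy signalling, 9 were higher and 2 lower in rejecting allografts against isografts at day 7, where 8.54% and 9.18% of all probe sets were. Fos, Atf3, Il6 and Socs3, immediate early and cytokine response genes, were higher by 2.74, 1.80, 2.98 and 1.94, and Ace and Il6st were lower, with differences of -2.23 and -1.32. In tolerizing allografts at day 7 Atf3 alone was called (1.19, SE 0.22, adjusted p = 0.0131), and limma called 0 at day 70, with 2 at an unadjusted p under 0.05. Of all probe sets, 1.69% were called at day 7, and 15.4% had such an unadjusted p at day 70. Over both days Atf3 and Map2k1 were higher and Akt1 lower, where 7.78% of all probe sets were called and 4.35% were called higher. Atf3, a stress-induced transcription factor gene, gave 295.7 to 342.3 in rejecting allografts, 136.2 to 195.0 and 182.5 to 277.5 in tolerizing allografts at days 70 and 7, and 79.9 to 95.2 and 74.9 to 106.7 in isografts at days 70 and 7.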

How the data were processed

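Total RNA of 14 transplanted hearts was measured on MG-U74Av2 arrays, 1 heart an array. The authors deposited 1 table of linear signal intensity values. The sources used here do not give the software or scaling, and trimmed means on all arrays were so close that no further scaling was done. The precision is limited by 2 or 3 arrays a group. Groups follow the titles and descriptions of the labels.

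Left out were 66 control probe sets. Intensity under 11, the 25th percentile, was set to 11, log2 was taken, and the 10395 probe sets (83.7% of the rest) above the floor on at least 3 of 14 arrays were tested with limma 3.58.1 in R 4.3.3 (lmFit, eBayes with intensity trend). All 5 groups shared 1 fit with 9 residual degrees of freedom, two-sided p-values and Benjamini-Hochberg adjustment over all probe sets at 0.05. Of the non-control probe sets, 10833 had 1 gene, 396 several and 1193 none in the annotation of the platform, with symbols brought up to date from a RefSeq table. The brightest probe set stood for a gene. Exact permutation tests enumerated all arrangements, also for the co-variation within groups (2592), where resampling had been planned. Promoters were searched in Python 3.11.15. The fit was tested on simulated data. Members, lists and the naming rule were chosen with earlier results of these data known. The rule names all 5 members, up to 4 called genes a list and comparison with the smallest p, 12 fixed genes and the 5 most alike genes. Markers of skeletal muscle, leukocytes and heart muscle were read as lists. Alternatives tried were scaling by quantiles or medians, other floors, a pseudocount of 16, other filters, no trend, array weights, a replicate or accession run block, the beta-actin ratio as a covariate, separate fits and leaving out each array.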

Additional observations from a re-analysis of the deposited data

How the results depend on the processing

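For the 5 genes, 9 comparisons gave 45 results, and 1251 alternative values were computed. Of these, 1230 kept their side of the threshold, 6 lost a call, 15 gained one and 0 reversed a call. Among the 1230, the sign could turn where neither value was called. Nppa in tolerizing allografts against isografts at day 7 gave -0.16 to 1.06 with 1 array left out at a time. All calls that changed belong to tolerizing allografts against isografts. Over both days Acta1 lost its call with no filter (3.26, adjusted p = 0.0788) and with the 3' to 5' ratio of beta-actin in the model (2.22). Nppb passed with a floor at the 50th percentile (1.81, adjusted p = 0.0440), a pseudocount of 16 (1.79), a filter on all arrays (1.81), array weights (1.79, from a fit that stopped short of its tolerance) and the accession run as a block (1.88). Leaving out 1 array at a time gave, over both days, 1.93 to 4.58 for Acta1, 1.09 to 2.53 for Nppb and 0.83 to 1.51 for Nppa. At day 70 it gave 0.85 to 6.16, 0.66 to 3.55 and 1.17 to 2.52, and at day 7 2.09 to 4.0 for Acta1, which passed without isograft replicate 1 or 2 of day 70. Where only 1 isograft of day 70 was left, it was assumed to vary like the other groups. The cause of these changes was not tested. Among the correlations within groups, r for Nppa and Nppb was 0.92 without the 2 arrays farthest for Nppa and 0.97 in the second run alone. For Nppa and Acta1 it was 0.82 and 0.98. Without the 2 arrays neither passed the threshold, and in the second run alone the exact permutation p was 0.25 and 0.125 over 16 arrangements.

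The labels do not say whether the replicate numbers pair hearts, and the check made here could not settle it. Over 26 pairs of the same number, r with group means taken out was -0.18 to 0.34, with 11 above 0.1. Its median was 0.05, against -0.06 for pairs of different numbers. All arrays of number 3 are in the first accession run, so number and run cannot be fully told apart. With the number as a replicate block Acta1 differed by 3.20 over both days (adjusted p = 0.0407), and no call of the 5 genes changed. Counts of probe sets called depended on the setting: 1842 for rejecting allografts against isografts (1153 to 2948), 176 and 333 for tolerizing allografts against isografts at days 7 and 70 (8 to 364 and 37 to 452), 147 for rejecting against tolerizing (20 to 1512), 4 and 0 over time in tolerizing allografts and isografts (0 to 46 and 0 to 32), 0 for the mean over time (0 to 6), 0 for the interaction (0 to 3) and 809 over both days (219 to 1076). Signal near the floor limits Myl7 and the second Myl4 probe set.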
